A study of Bos taurus with 9 samples.

Results

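Heat shock proteins are chaperones that help other proteins to fold, and the 10 genes described here, HSPA1A, HSPA8, HSPA4, HSPH1, HSP90AA1, DNAJB1, HSPB1, HSPD1, HSPE1 and BAG3, were taken by their symbols from a table of read counts. All 10 were present among the 30641 genes of the table, and all 10 were among the 14874 genes with enough counts to be tested. The RNA of cultured cattle cells, labelled endometrial epithelial, was read in 9 libraries, 3 in each of 3 groups. The untreated control cells received neither reagent nor RNA. The reagent alone cells were given jetMESSENGER, a reagent that carries mRNA into cells, 24 hours after seeding. The DPPA3 mRNA cells took up in vitro transcribed DPPA3 mRNA (500 ng) through the same reagent at the same time. DPPA3 is a maternal factor of the early embryo, and the study asked what its transcript does in endometrial cells. No group received another mRNA, and since nothing in the labels says that replicates came from separate cultures or animals, p-values measure the spread of these libraries only, which may be technical.

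Chaperones work in relays. HSP70 proteins bind unfolded stretches of a client protein, J-domain proteins bring clients and switch on the ATPase of HSP70, and nucleotide exchange factors make HSP70 let go. HSP90 takes over part-folded clients such as kinases and steroid hormone receptors, small heat shock proteins hold unfolded clients without ATP, and a barrel-shaped chaperonin folds proteins inside mitochondria. Many of these genes are switched on by the heat shock factor HSF1 when unfolded proteins build up, and the inducible ones are widely used as readouts of stress on protein folding. In the endometrium HSP90 and its partners are known for keeping the receptors of oestradiol and progesterone ready to bind hormone.

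Total counts ranged from 7258348 to 10130619 in the untreated controls, from 3890134 to 12092771 with reagent alone and from 11070923 to 13258036 with DPPA3 mRNA. Untreated control replicate 1 stood apart from the other 8 libraries. It was the lowest of the 9 for 31.3% and the highest for 28.8% of the genes tested, 1 gene (LOC112442408) took 10.98% of its counts against 3.05% to 4.36% elsewhere, and its scaling factor was 0.856 against 1.001 to 1.05. The fold changes and counts of calls of the 10 genes against the untreated control are therefore given with and without it, while levels by library, group means and shares of non-overlapping groups include it. DPPA3 had 126334 to 213790 counts in the transfected libraries and 0 to 2 in the others. Of 9 epithelial markers, the keratin genes KRT8, KRT18 and KRT19 had medians of 4254, 1692 and 2671 CPM (counts scaled to a common library size with TMM factors), and CDH1, which encodes E-cadherin, ranged from 37.6 to 58.7 CPM, while EPCAM and ESRP1, also defining markers of epithelia, did not exceed 0.782 and 0.161 CPM. All 9 epithelial and all 9 stromal markers had counts, but only 6 of the 9 epithelial ones had enough to be tested. MUC1 and CLDN4, also epithelial, were at most at 3.87 and 1.93 CPM, and THY1, a stromal one, at 1.29 CPM. The summed epithelial level was 8928 to 11052 CPM in untreated cells, 8587 to 8942 CPM with reagent alone and 8792 to 9791 CPM with DPPA3 mRNA. The summed stromal level was 30397 to 46375 CPM in untreated cells, 27910 to 35994 CPM with reagent alone and 29464 to 34659 CPM with DPPA3 mRNA, mostly from COL1A1, COL1A2 and COL3A1. The highest of these sums was that of untreated control replicate 1. The 5 endothelial and 5 immune markers summed to at most 12.2 and 8.17 CPM in any library, with PTPRC at 0 counts. The part of cell composition in the results below was not tested, and in bulk RNA fewer cells of a type and less RNA per cell cannot be told apart.

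None of the 10 heat shock genes was called in any of the 3 comparisons by the quasi-likelihood test of edgeR (p under 0.05 after Benjamini-Hochberg adjustment across the 14874 genes). At an unadjusted p under 0.05 in this fit by group alone the count was also 0 of 10 in each comparison, where 1.67% of all genes passed with DPPA3 mRNA against reagent alone, 3.91% with DPPA3 mRNA against untreated control and 10.2% with reagent alone against untreated control, and DESeq2 and limma voom called 0 of 10. Of all genes 0.00672%, 0.0134% and 0% were called by edgeR in the 3 comparisons in the same order. For no gene of the 10 did all 3 libraries of a group lie above or below all 3 of another. Of all genes 8.90%, 8.10% and 14.1% did so in these comparisons. What varied was the level between libraries of the same group, above all in untreated control replicate 1. There 6 of the 10 genes were at their lowest and 3 at their highest of the 9 libraries, against 60.1% of all genes at either extreme.

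**Figure D1:**
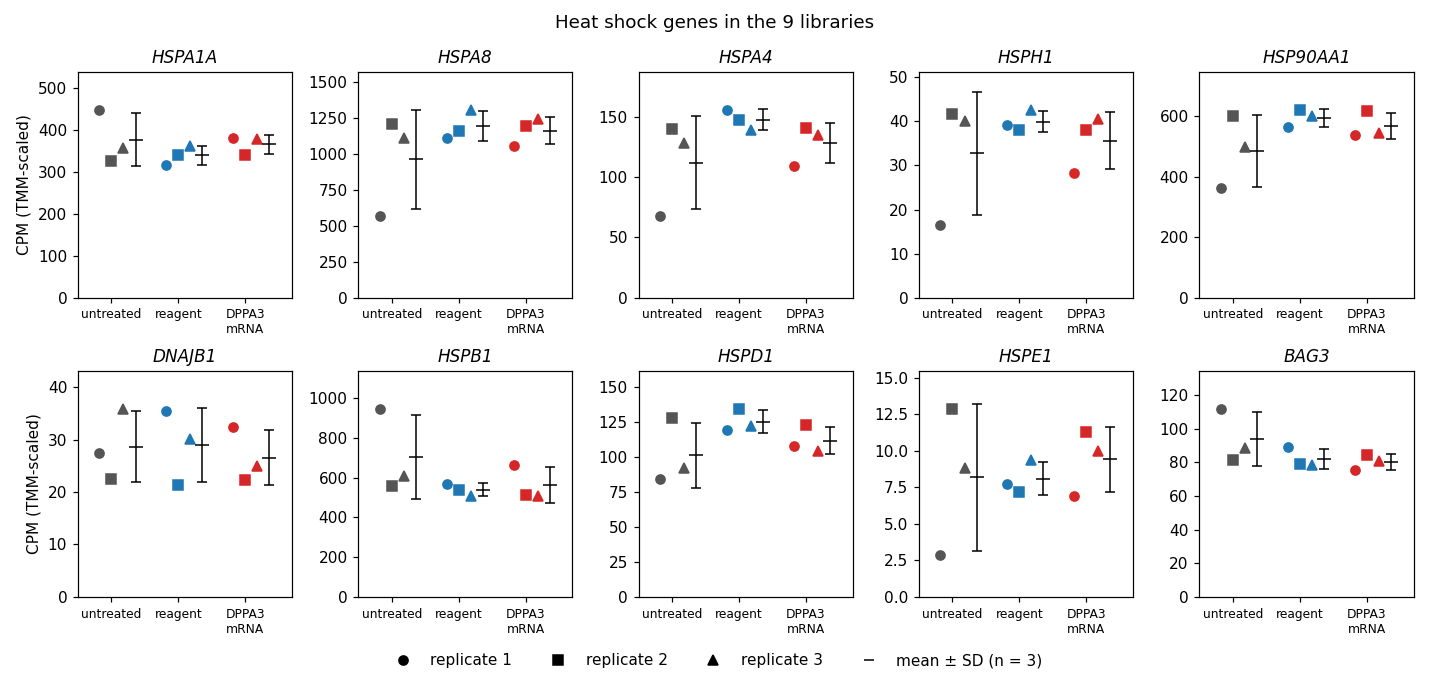
Level of each heat shock gene in CPM (linear axis from 0, counts scaled to a common library size) in untreated, reagent alone and DPPA3 mRNA libraries, with symbols for replicate numbers and a bar for mean ± SD (n = 3). The groups overlap in every panel, and untreated control replicate 1 lies far below the rest for HSPA8 (565 CPM) and HSPE1 (2.90 CPM) and above them for HSPB1 (946 CPM).

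HSPA8 encodes the constitutive HSP70 of the cytosol, also called HSC70, and had the most counts of the 10 genes (101746 in all). It measured 565, 1207 and 1109 CPM in untreated control replicates 1 to 3, 1109, 1161 and 1308 CPM in reagent alone replicates 1 to 3 and 1055, 1191 and 1238 CPM in DPPA3 mRNA replicates 1 to 3. Only the first untreated library fell outside a band of 1055 to 1308 CPM, which held the other 8. DPPA3 mRNA differed from reagent alone by a log2 fold change of -0.04 (SE 0.22, 95% interval -0.52 to 0.44). The RefSeq table of the assembly ARS-UCD2.0 places 2 snoRNA genes inside the HSPA8 gene, with 44 and 15 counts over all libraries, so they could move its level little.

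HSPA1A encodes the stress-inducible HSP70 and is a classic marker of heat and misfolded protein. It measured 449, 325 and 358 CPM in untreated control replicates 1 to 3, 317, 341 and 361 CPM with reagent alone and 381, 340 and 378 CPM with DPPA3 mRNA. The highest value was in an untreated library, and the transfected libraries lay within the range of the untreated ones. The log2 fold change of DPPA3 mRNA over reagent alone was 0.11 (SE 0.15), and its 95% interval of -0.22 to 0.43 leaves out a change of 1.5-fold in either direction. HSPA1B, the near-identical copy of this gene, matched no symbol of the count table and is listed as a synonym of HSPA1A in RefSeq. Whether the HSPA1A counts hold reads of HSPA1B is not known.

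DNAJB1 encodes HSP40, the J-domain partner of inducible HSP70. It measured 27.4, 22.5 and 35.9 CPM in untreated control replicates 1 to 3, 35.4, 21.4 and 30.2 CPM with reagent alone and 32.4, 22.3 and 24.95 CPM with DPPA3 mRNA. Its level in untreated control replicate 1 lay at the middle of the other 8 libraries (log2 difference from their median -0.0025), alone among the 10 genes in being neither the lowest nor the highest there. In each group replicate 2 was the lowest. The log2 fold change of DPPA3 mRNA over reagent alone was -0.11 (SE 0.25, 95% interval -0.65 to 0.42). In the same RefSeq table a pseudogene, LOC100295585, overlaps DNAJB1. No count was available for it, so its part in the level of DNAJB1 was not tested.

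Nucleotide exchange on HSP70 is the task of HSPA4 and HSPH1, which belong to the HSP110 family, and of BAG3. HSPA4 measured 68.0, 140 and 128 CPM in untreated control replicates 1 to 3, 156, 148 and 139 CPM with reagent alone and 109, 141 and 135 CPM with DPPA3 mRNA. HSPH1 measured 16.6, 41.7 and 39.997 CPM in untreated control replicates 1 to 3, 39.1, 38.1 and 42.7 CPM with reagent alone and 28.3, 37.9 and 40.6 CPM with DPPA3 mRNA. For both genes the first untreated library was the lowest of the 9 and DPPA3 mRNA replicate 1 the next lowest. BAG3, which links HSP70 to small heat shock proteins and to autophagy, went the other way in that untreated library, at 112 CPM against 81.3 and 88.6 CPM in the other untreated libraries. BAG3 then measured 89.1, 79.1 and 78.2 CPM with reagent alone and 75.6, 84.6 and 80.6 CPM with DPPA3 mRNA, a band of 75.6 to 89.1 CPM that also held untreated replicates 2 and 3. Against reagent alone the log2 fold changes with DPPA3 mRNA were -0.20 (SE 0.22) for HSPA4, -0.17 (SE 0.28) for HSPH1 and -0.03 (SE 0.16) for BAG3.

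HSP90AA1 encodes the stress-responsive form of cytosolic HSP90. It measured 363, 600.2 and 499 CPM in untreated control replicates 1 to 3, 565, 623 and 600.2 CPM with reagent alone and 539, 619 and 546 CPM with DPPA3 mRNA. All 3 reagent alone libraries lay above 2 of the untreated ones, but untreated control replicate 2 lay within the range of the reagent alone libraries. The log2 fold change of DPPA3 mRNA over reagent alone was -0.07 (SE 0.17, 95% interval -0.44 to 0.30).

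HSPB1 encodes HSP27, a small heat shock protein that holds unfolded clients and protects the actin cytoskeleton. It measured 946, 558 and 610 CPM in untreated control replicates 1 to 3, 569, 539.99 and 506 CPM with reagent alone and 665, 512 and 509 CPM with DPPA3 mRNA. In every group replicate 1 was the highest, most of all in untreated cells. The log2 fold change of DPPA3 mRNA over reagent alone was 0.06 (SE 0.19, 95% interval -0.36 to 0.48).

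HSPD1 and HSPE1 encode HSP60 and HSP10, the barrel and the lid of the mitochondrial chaperonin, and are neighbours in the RefSeq table with 0 genes between them. HSPD1 measured 84.4, 128 and 92.0 CPM in untreated control replicates 1 to 3, 119, 135 and 122 CPM with reagent alone and 108, 123 and 105 CPM with DPPA3 mRNA. HSPE1 measured 2.90, 12.9 and 8.80 CPM in untreated control replicates 1 to 3, 7.72, 7.19 and 9.37 CPM with reagent alone and 6.94, 11.3 and 10.02 CPM with DPPA3 mRNA. HSPE1 had 792 counts in all and the widest intervals of the 10 genes. Its lowest value rested on 18 counts, with an exact Poisson 95% interval of 1.72 to 4.58 CPM, which covers counting error only and lies below the next lowest value of 6.94 CPM. The log2 fold changes of DPPA3 mRNA over reagent alone were -0.17 (SE 0.17) for HSPD1 and 0.21 (SE 0.41) for HSPE1. The 95% interval for HSPE1, -0.67 to 1.09, does not exclude a doubling. Without untreated control replicate 1, which is not part of this comparison, the log2 fold change was 0.20 and the interval -0.37 to 0.78. That library was left out because it stood apart, and it enters only through the shared fit. The narrower interval is therefore not used to exclude a doubling.

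Between DPPA3 mRNA and reagent alone the question was what the mRNA did in cells that all received the reagent. Of the 10 genes 3 had a log2 fold change above 0 and 7 below, their median was -0.05, and the median over all genes tested was 0.0027. The adjusted p was 0.9998 for each of the 10 (edgeR). Here 0 of 10 heat shock genes were called against 0.00672% of all genes, which is 1 gene, DPPA3 itself. No heat shock gene had groups that did not overlap, against 8.90% of all genes. Over the 10 genes the 95% intervals reached from a 0.583-fold to a 2.13-fold level, the upper bound being that of HSPE1. Untreated libraries enter this comparison only through the shared filter, scaling and estimate of spread. With untreated control replicate 1 left out the median was -0.06, and the standard errors fell from between 0.15 and 0.41 to between 0.11 and 0.27, with 0 of 10 called. Of all genes 0.00650% were then called, and 3.19% had an unadjusted p under 0.05 against 0 of 10 here. The smallest p of the 10 was then that of HSPA4 (log2 fold change -0.20, SE 0.13, edgeR adjusted p 0.9994).

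**Figure D2:**
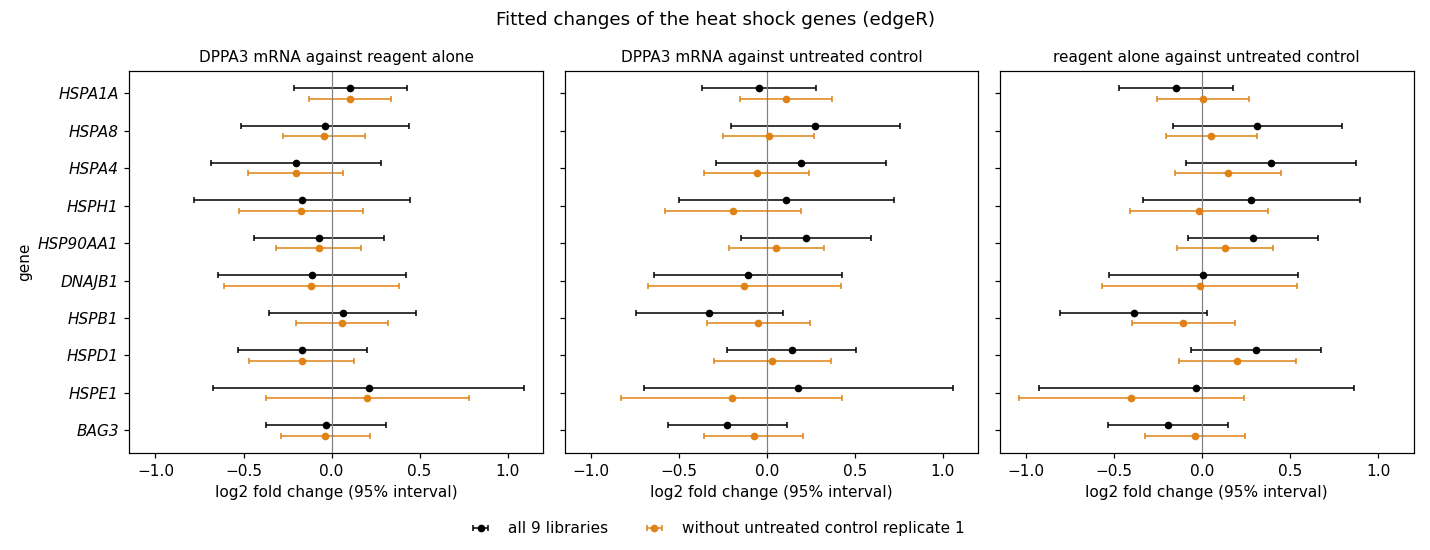
Fitted log2 fold change of each heat shock gene with its 95% interval in the 3 comparisons, over all 9 libraries (black) and without untreated control replicate 1 (orange). Every black interval includes 0. In the panels against untreated control the orange points lie closer to 0 for HSPA8 (0.27 and 0.01 for DPPA3 mRNA) and HSPB1 (-0.33 and -0.05). Without that library HSPE1 goes from 0.18 to -0.20 for DPPA3 mRNA and from -0.03 to -0.40 for reagent alone.

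DPPA3 mRNA against untreated control sets reagent and mRNA together against no treatment. The log2 fold change was above 0 for 6 genes and below for 4, with a median of 0.13 against 0.0017 over all genes. The values were 0.27 (SE 0.22) for HSPA8, 0.22 (SE 0.17) for HSP90AA1, 0.19 (SE 0.22) for HSPA4, 0.18 (SE 0.41) for HSPE1, 0.14 (SE 0.17) for HSPD1 and 0.11 (SE 0.28) for HSPH1. On the other side were HSPB1 at -0.33 (SE 0.19), BAG3 at -0.23 (SE 0.16), DNAJB1 at -0.11 (SE 0.25) and HSPA1A at -0.04 (SE 0.15). The edgeR adjusted p ran from 0.852 to 0.951, and 0 of 10 were called against 0.0134% of all genes. Non-overlapping groups were found for 0 of 10 and for 8.10% of all genes. Without untreated control replicate 1 the median was -0.05, and 0 of 10 genes were called against 0.00650% of all genes, or had an unadjusted p under 0.05 against 2.46%. HSPA4, HSPH1 and HSPE1 then had log2 fold changes of -0.06, -0.19 and -0.20, HSPA1A had 0.11, and HSPA8 had 0.01. HSP90AA1 was then at 0.05, HSPD1 at 0.03, HSPB1 at -0.05, BAG3 at -0.08 and DNAJB1 at -0.13. HSPA4, HSPH1 and HSPE1 kept their sign when any other single library was left out. HSPA1A, at -0.04 over all libraries, also changed sign without DPPA3 mRNA replicate 2, to 0.0098.

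Reagent alone against untreated control gives the background of the reagent. HSPA4 had a log2 fold change of 0.39 (SE 0.22), HSPA8 of 0.31 (SE 0.22), HSPD1 of 0.31 (SE 0.17), HSP90AA1 of 0.29 (SE 0.17), HSPH1 of 0.28 (SE 0.29) and DNAJB1 of 0.0068 (SE 0.25). HSPB1 was at -0.39 (SE 0.19), BAG3 at -0.19 (SE 0.16), HSPA1A at -0.15 (SE 0.15) and HSPE1 at -0.03 (SE 0.41). The smallest edgeR adjusted p of the 10 was 0.466, for HSPB1. The share of all genes called was 0%, as was that of the 10, and non-overlapping groups were found for 0 of 10 and for 14.1% of all genes. The median of the 10 was 0.14 over all libraries and -0.0052 without untreated control replicate 1, and it was 0.45 without untreated control replicate 2. Leaving out the first untreated library took HSPA8 to 0.05, HSPA4 to 0.15, HSP90AA1 to 0.13, HSPD1 to 0.20 and HSPB1 to -0.11, while HSPE1 moved away from 0, to -0.40 (SE 0.30, edgeR adjusted p 0.929). HSPH1, HSPA1A and DNAJB1 changed sign without it, to -0.02, 0.0044 and -0.015. An unadjusted p under 0.05 was then found for 0 of 10 and for 3.95% of all genes. The same 3 untreated libraries serve in this comparison and the one before it, which are therefore not separate observations.

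Group means are given over all 3 libraries of each group. For HSPA8 the means were 961 ± 346 CPM in untreated cells, 1192 ± 103 CPM with reagent alone and 1162 ± 95.04 CPM with DPPA3 mRNA (SD, n = 3). For HSPB1 they were 705 ± 211, 538 ± 32.0 and 562 ± 89.4 CPM in the same order of groups, and for HSPE1 8.19 ± 5.02, 8.09 ± 1.14 and 9.41 ± 2.24 CPM. The untreated SD was the largest of the 3 for these genes. In reagent alone cells the SD of HSPA4 was 8.54 CPM around a mean of 147 CPM, against 38.6 CPM around 112 CPM in untreated cells. No neighbours in the order of means passed the test for any of the 10 genes.

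**Figure D3:**
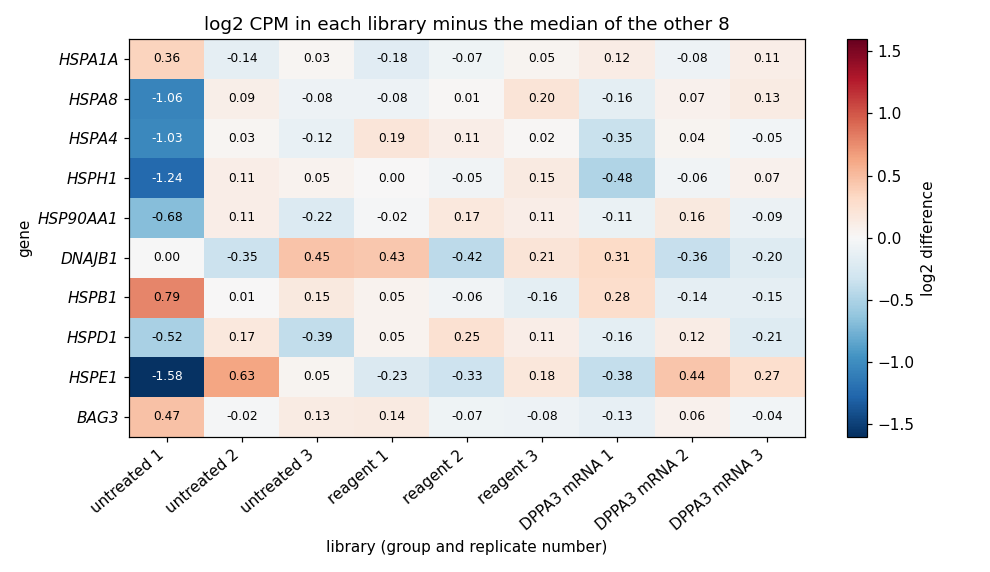
Difference between the log2 CPM of each library and the median of the other 8, for each heat shock gene (rows) and library (columns), as colour and number. The column of untreated control replicate 1 holds -1.58 for HSPE1, -1.24 for HSPH1 and 0.79 for HSPB1, and in the other columns the largest value in size is 0.63, for HSPE1 in untreated control replicate 2.

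In untreated control replicate 1 the genes went in both directions. HSPE1, HSPH1, HSPA8, HSPA4, HSP90AA1 and HSPD1 lay below the median of the other 8 libraries by log2 differences of -1.58, -1.24, -1.06, -1.03, -0.68 and -0.52, and each was at its lowest of the 9. HSPB1, BAG3 and HSPA1A lay above it by 0.79, 0.47 and 0.36, and each was at its highest. The low ones hold the constitutive HSP70, HSPA4 and HSPH1, the stress-responsive form of HSP90 and both parts of the mitochondrial chaperonin. The high ones hold HSPB1, BAG3 and the inducible HSP70, while DNAJB1 lay at the middle (-0.0025). No test was made of this division. The share of all genes at their lowest in this library was 31.3%, and at their highest 28.8%, so 9 of 10 at an extreme compares with 60.1% of all genes. LOC112442408, the scaling factor and COL1A1 (18918 CPM there, with a median of 9972 CPM over the 9 libraries) also differed in this library, and their part in these values was not tested. The spread outside it differed from gene to gene. Over the other 8 libraries the highest value was 1.18 times the lowest for BAG3, 1.202 times for HSPA1A, 1.24 times for HSPA8, 1.25 times for HSP90AA1 and 1.32 times for HSPB1. The ratio was 1.43 for HSPA4, 1.46 for HSPD1, 1.51 for HSPH1, 1.68 for DNAJB1, the same as over all 9, and 1.86 for HSPE1.

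Correlations among the genes describe the same contrast. Over the 9 libraries Pearson's r of log2 CPM was 0.96 between HSPA8 and HSPH1, 0.93 between HSPA8 and HSPA4 and -0.96 between HSPA8 and HSPB1. Without untreated control replicate 1 (8 libraries) these were 0.73, 0.41 and -0.89. The pair with the highest r over the 8 libraries was HSP90AA1 and HSPD1, at 0.96, and at 0.91 over all 9. HSPD1 and HSPE1, the 2 parts of one chaperonin, had r = 0.64 over 9 libraries and 0.14 over 8. HSPA1A and BAG3 turned from 0.55 to -0.57. Of the 45 pairs 39 kept their sign. The libraries of a pair share their depth and scaling, so these values are descriptions with no test.

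Replicate numbers recur in the 3 groups. HSPB1 was highest in replicate 1 of every group, HSPD1 and HSP90AA1 were highest in replicate 2, and HSPA8 and HSP90AA1 were lowest in replicate 1. With the low value of DNAJB1 in replicate 2 this made 5 of 10 genes with the same number at an extreme in all 3 groups, against 39.6% of all genes. When the replicate number was added to the fit as a block, 0 of 10 genes were called in any comparison. Between DPPA3 mRNA and reagent alone 0 of 10 then had an unadjusted p under 0.05, against 2.43% of all genes. For DPPA3 mRNA against untreated control, where the numbers were taken to pair the libraries, it was 1 of 10 against 9.35% of all genes. That gene was HSPB1, which was lower with DPPA3 mRNA in all 3 pairs (log2 fold change -0.31, unadjusted p 0.0341 and adjusted p 0.524 by edgeR). HSP90AA1 and HSPA4 were higher in all 3 pairs, at 0.24 and 0.22 with the block. The share of all genes that moved the same way in all 3 pairs was not counted. For reagent alone against untreated control 5 of the 10 then had an unadjusted p under 0.05, in place of 0, against 19.6% of all genes, and HSPB1 had the smallest adjusted p, 0.198 (edgeR). The 5 were HSPB1 at a log2 fold change of -0.35, HSPA4 at 0.44, HSPA8 at 0.36, HSPD1 at 0.32 and HSP90AA1 at 0.31. When untreated control replicate 1 was left out of the blocked fit they were -0.19, 0.18, 0.11, 0.24 and 0.17 in the same order, and 1 of them, HSPD1, had an unadjusted p under 0.05 (p 0.0463, adjusted p 0.467 by edgeR). For DPPA3 mRNA against untreated control HSPB1 was then at -0.14 (adjusted p 0.997 by edgeR).

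The rest of the chaperone system was described with 9 lists of other genes, which hold 73 tested genes that are not among the 10. Some genes belong to several lists, so the list medians are not separate observations. By edgeR 0 of the 73 were called in any comparison. An unadjusted p under 0.05 was found for 1 of them (1.37%, against 1.67% of all genes) with DPPA3 mRNA against reagent alone. It was found for 4 (5.48%, against 3.91%) with DPPA3 mRNA against untreated control and for 12 (16.4%, against 10.2%) with reagent alone against untreated control. Without untreated control replicate 1 these last counts were 1 (1.37%, against 2.46%) and 2 (2.74%, against 3.95%). With the replicate block over all libraries they were 8 (11%, against 9.35%) and 20 (27.4%, against 19.6%). Groups that did not overlap were found for 7 of the 73 (9.59%, against 8.90% of all genes) with DPPA3 mRNA against reagent alone, 2 of them higher and 5 lower. Among the 7 were HSF5, TCP1, DNAJA4, BAG1 and CLPX. With reagent alone against untreated control the count was 8 (11%, against 14.1% of all genes), 7 higher and 1 lower. With DPPA3 mRNA against untreated control it was 9 (12.3%, against 8.10%), 4 higher and 5 lower.

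The heat shock factors, which switch on the genes of this system, were tested as HSF1, HSF2, HSF4, HSF5 and the binding protein HSBP1. Their median log2 fold change was 0.17 for DPPA3 mRNA against reagent alone, with 3 above 0 and 2 below. HSF4 measured 16.7, 13.4 and 17.3 CPM in reagent alone replicates 1 to 3 and 25.0, 16.6 and 23.5 CPM with DPPA3 mRNA (log2 fold change 0.47, SE 0.31, edgeR adjusted p 0.9998). In untreated control replicate 1 HSF4 stood at 41.9 CPM, the highest of the 9. HSF2 measured 7.72, 14.6 and 12.7 CPM with reagent alone and 9.65, 9.03 and 8.66 CPM with DPPA3 mRNA. HSF5 had 1, 4 and 3 counts with reagent alone and 18, 6 and 10 with DPPA3 mRNA, groups that did not overlap but held too few counts for a fold change to be read. Against untreated control the median of this list was -0.32 for DPPA3 mRNA and -0.48 for reagent alone, and -0.14 and -0.18 without untreated control replicate 1.

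J-domain proteins other than DNAJB1 had a median of -0.06 with DPPA3 mRNA against reagent alone, with 8 of 11 genes below 0. DNAJA4, an HSP70 partner of class A, had the smallest p of the 73 genes. It measured 22.7, 21.2 and 16.1 CPM in reagent alone replicates 1 to 3 and 12.7, 13.3 and 12.6 CPM with DPPA3 mRNA, so that the groups did not overlap. Its log2 fold change was -0.63 (SE 0.22, edgeR adjusted p 0.9998), and -0.25 against untreated cells (-0.29 without untreated control replicate 1), which measured 14.3, 13.4 and 17.99 CPM. DNAJB5 and DNAJB6, J-domain proteins of class B, had log2 fold changes of -0.32 and 0.13 against reagent alone. Other HSP70 genes had a median of -0.15 over 7 tested genes. HSPA13 and HSPA12A had -0.27 and -0.18, and HSPA1L had only 4 to 26 counts per library. HSPA6, a stress-inducible HSP70 in humans, had 8 counts in all libraries together and was not tested.

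Other nucleotide exchange factors had a median of -0.02 over 8 genes. BAG1 measured 52.0, 51.6 and 48.7 CPM with reagent alone and 39.1, 44.98 and 44.8 CPM with DPPA3 mRNA, groups that did not overlap, with a log2 fold change of -0.24 (SE 0.16). GRPEL2 and GRPEL1, the exchange factors of mitochondrial HSP70, had -0.25 and -0.08. Other HSP90 genes, among them the constitutive HSP90AB1, and partners of HSP90 had a median of 0.0068 over 13 genes. PTGES3, the co-chaperone p23, had -0.30 (SE 0.26), CHORDC1 had -0.25 (SE 0.25) and the ubiquitin ligase STUB1 had 0.18 (SE 0.19). For reagent alone against untreated control PTGES3 was at 0.75 (SE 0.26, edgeR adjusted p 0.466), and at 0.52 without untreated control replicate 1.

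Small heat shock proteins other than HSPB1 had a median of 0.01 over 5 tested genes, and HSPB3 and CRYAA, with 0 and 1 counts, were not tested. CRYAB measured 17.9, 17.3 and 20.9 CPM with reagent alone and 22.1, 22.2 and 15.6 CPM with DPPA3 mRNA. HSPB7 had a log2 fold change of 0.30 (SE 0.41), and HSPB8 had 3 to 19 counts per library. Mitochondrial chaperones and proteases had a median of 0.02 over 9 genes. CLPX, the unfoldase of a mitochondrial protease, measured 36.9, 41.1 and 38.2 CPM with reagent alone and 25.4, 36.7 and 33.2 CPM with DPPA3 mRNA, groups that did not overlap (log2 fold change -0.29, SE 0.28). CLPP, its protease, had 0.26 (SE 0.25).

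TRiC, the chaperonin of the cytosol, and prefoldin, which hands it actin and tubulin, had a median of -0.07 over 14 genes. VBP1 had -0.54 (SE 0.35), PFDN5 0.23 (SE 0.18) and TCP1 -0.18 (SE 0.19, groups that did not overlap). Their median was 0.35 for reagent alone against untreated control, and 0.15 without untreated control replicate 1. Other known targets of heat shock factors, some of which, such as CHORDC1 and TCP1, are also in the lists above, had a median of 0.02 over 14 genes. CACYBP, among them, measured 46.4, 57.9 and 49.1 CPM in untreated control replicates 1 to 3, 73.5, 61.8 and 79.6 CPM with reagent alone and 64.4, 65.6 and 66.04 CPM with DPPA3 mRNA. The untreated libraries lay below all others, with log2 fold changes of 0.48 (SE 0.16, edgeR adjusted p 0.466) for reagent alone and 0.35 (SE 0.16, edgeR adjusted p 0.852) for DPPA3 mRNA. Without untreated control replicate 1 these were 0.43 and 0.29. Over all libraries, groups that did not overlap were found for 14.1% and 8.10% of all genes in these comparisons.

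**Figure D4:**
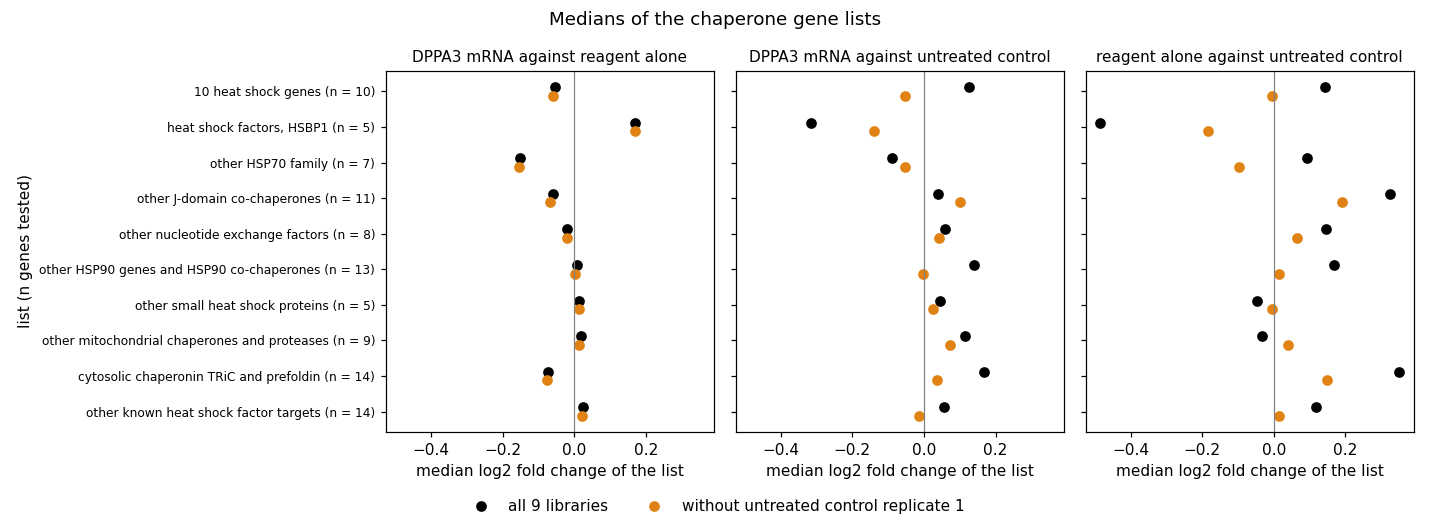
Median log2 fold change of the 10 heat shock genes and of 9 lists of other chaperone genes in the 3 comparisons, over all 9 libraries (black) and without untreated control replicate 1 (orange), with the number of genes tested beside each list. With DPPA3 mRNA against reagent alone the medians run from -0.15 to 0.17 and the colours nearly coincide. Against untreated control they separate, as for TRiC and prefoldin (0.35 and 0.15 with reagent alone). Some genes belong to several lists.

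The genes outside these lists whose level most resembled the 10 were sought by the correlation over the 9 libraries with the mean of their standardised log2 CPM. They were SRPK1 (r = 0.985), TTC14 (0.983), ASH1L (0.983), PIK3C3 (0.982) and SMC2 (0.981). Each was lowest in untreated control replicate 1, as SMC2 with 9.83 CPM against 24.6 to 40.9 CPM elsewhere. Over the other 8 libraries r was 0.946, 0.842, 0.915, 0.763 and 0.945. The mean sets genes that were low in that library against genes that were high, so it describes the majority of the 10 and not each of them.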

How the data were processed

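Per the labels' protocols, total RNA was isolated with TRIzol and DNase, and an IDT xGen kit gave the libraries. The authors deposited raw read counts per gene symbol. Tools named in the submitters' processing notes are Trimmomatic, HISAT2, HTSeq and edgeR. Their versions, the build, the annotation and any use of strand: not given in the sources used here. Coordinates are therefore left out. The table of RefSeq genes (ARS-UCD2.0) matched all 10 members and 24552 of 30641 symbols; no sequences were used.

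Counts were filtered with filterByExpr, scaled with TMM and fitted over all 9 libraries with edgeR 4.0.16 (glmQLFit, glmQLFTest, under R 4.3.3) on a model of group alone. Adjusted p-values are Benjamini-Hochberg over 14874 genes and calls are under 0.05. Standard errors are the log2 fold change over the square root of F, and 95% intervals use the t quantile of the same test. Members and lists were chosen with earlier results of these data known. All members are named, with up to 3 genes of each list by smallest p against reagent alone and the 5 genes most like the members. Replicates differed beyond sampling noise (chi-square per degree of freedom at least 13.4), so none was a duplicate.

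As a check of pairing, the deviations of libraries from their group means were correlated between equal replicate numbers. For DPPA3 mRNA with untreated control the correlations were 0.34, 0.32 and 0.12. All were over the limit of 0.1, so the numbers were taken to pair those samples, from the data and not the labels. The deviations within a group are not independent of each other, so pairing is not established. For DPPA3 mRNA against untreated control the block moved the genes called from 2 to 7 and no call among the 10. The settings varied were scaling by DESeq2 size factors, the low-count filter, DESeq2 1.42.0 as the test, only the 6 libraries compared, the replicate block, DPPA3 left out, and each library left out. Limma voom with quality weights (limma 3.58.1), and the block without untreated control replicate 1, were added after the data were seen. The scripts were tested on simulated data.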

Additional observations from a re-analysis of the deposited data

How the results depend on the processing

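Of the 10 heat shock genes 0 were called under all 17 alternatives in each comparison, and the smallest adjusted p was 0.070, for HSPD1 with reagent alone against untreated control by limma voom. The limma voom fit, and the block with untreated control replicate 1 left out, were chosen after seeing the data. For DPPA3 mRNA against reagent alone, DPPA3 mRNA against untreated control and reagent alone against untreated control, unfiltered counts gave 66, 69 and 18 called genes over the whole table, DESeq2 gave 9, 10 and 2, and the block fitted after dropping untreated control replicate 1 gave 19, 33 and 6. With the replicate block they were 2 and 7 in the first pair, with DPPA3 left out 0 and 0, and with voom 4 and 2 in the last pair; the cause was not tested, except that leaving DPPA3 out removes a called gene. With each library dropped in turn the calls ran from 1 to 20, from 1 to 26 and from 0 to 1, the highest of the first pair without DPPA3 mRNA replicate 1. The medians of the 10 genes then ran from -0.06 to -0.03, from -0.054 to 0.33 and from -0.0052 to 0.45; the lowest of the last pair came without untreated control replicate 1 and the highest without untreated control replicate 2. Some log2 fold changes changed sign. With reagent alone against untreated control the replicate block gave -0.0037 for DNAJB1 and 0.066 for HSPE1, voom gave -0.32 for DNAJB1, and the block without untreated control replicate 1 gave -0.15 for DNAJB1 and 0.014 for HSPA1A. With DPPA3 mRNA against untreated control the latter fit gave 0.12 for HSPA1A, -0.025 for HSPA4, -0.12 for HSPH1 and -0.080 for HSPE1, and voom gave 0.044 for HSPA1A and -0.059 for HSPH1. CRYAB against reagent alone was at -0.048 with voom. When single libraries were left out, the ranges for DPPA3 mRNA against reagent alone were -0.088 to 0.035 for HSPA8, -0.30 to 0.043 for DNAJB1, -0.080 to 0.13 for HSPB1, -0.070 to 0.028 for BAG3 and -0.25 to 0.056 for HSPB8. For DPPA3 mRNA against untreated control they were -0.14 to 0.11 for HSPA1A, -0.058 to 0.38 for HSPA4, -0.19 to 0.32 for HSPH1, -0.28 to 0.094 for DNAJB1 and -0.20 to 0.64 for HSPE1. For reagent alone against untreated control they were -0.25 to 0.0044 for HSPA1A, -0.019 to 0.48 for HSPH1, -0.15 to 0.21 for DNAJB1 and -0.40 to 0.43 for HSPE1. Equal replicate numbers correlated at 0.14, 0.12 and 0.086 between DPPA3 mRNA and reagent alone, and at 0.15, 0.14 and 0.093 between reagent alone and untreated control. In each set 1 of 3 was under the limit of 0.1, and the block served there as an alternative fit. Each library had its highest correlation with the equal number. Since deviations within a group are not independent of each other, these values do not establish pairing. Depth limited HSPE1 most, with 18 to 125 counts per library.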

Other observations

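Other chaperone groups also departed from the rest in untreated control replicate 1, by their median log2 difference from the other 8 libraries. It was -0.82 for J-domain proteins other than DNAJB1 (6 of 11 genes at their lowest there and 2 at their highest) and -0.67 for TRiC and prefoldin (8 of 14 lowest and 1 highest). The 5 genes of heat shock factors and HSBP1 had 0.81, with 3 at their highest and 2 at their lowest. The median over all genes tested was -0.035. Small heat shock proteins other than HSPB1 and mitochondrial chaperones and proteases were near it, at 0.039 and 0.086. These values describe 1 library, and no test was made of them.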
